A study of Mus musculus with 4 samples.

Results

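Immediate early genes are transcribed within minutes of a stimulus, before any new protein is made, and 10 of them were followed here through the nuclei of mouse hearts: Fos, Fosb, Jun, Junb, Egr1, Egr2, Nr4a1, Nr4a3, Btg2 and Ier2. They were chosen by symbol, and all 10 were found among the 44628 genes of the 4 libraries. The series compared hearts in which Pkp2 was targeted for deletion with hearts that were not. Its product, plakophilin 2, belongs to the desmosome, a junction between heart muscle cells. The 2 cKO libraries came from mice with floxed Pkp2 alleles on both chromosomes and 1 copy of the MCM cre transgene, and the 2 control libraries from mice with MCM cre alone, whose genotype tag nevertheless reads wild type. All mice of both groups received tamoxifen, were 8 weeks old, and had their hearts taken 2 weeks after it. Each library pooled the hearts of 2 mice, 1 male and 1 female. MCM is the usual short name of a Cre enclosed by modified estrogen receptor parts that tamoxifen activates; neither the promoter that drives it nor the floxed part of Pkp2 is stated in the sources used here. Single nuclei from frozen hearts were tagged on the BD Rhapsody microwell platform. The cell type tag reads cardiomyocyte, yet the nuclei fell into cardiomyocytes, fibroblasts, endothelial nuclei, mural nuclei (pericytes and smooth muscle) and macrophages, named by marker genes.

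Growth factors, stretch, adrenergic signals and handling of a tissue all raise these genes in the heart, through kinases that act on factors already bound at their promoters. Serum response factor binds the CArG box and CREB binds the cAMP response element, and the messages decay quickly once the signal ends. Fos and Fosb proteins pair with Jun and Junb to form AP-1. Egr1 and Egr2 are zinc-finger factors, Nr4a1 and Nr4a3 are nuclear receptors with no known natural ligand, and Btg2 restrains proliferation and helps to shorten poly(A) tails. Ier2 is a small nuclear protein.

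Promoters are shown for 5 of the genes called below, since such signals act in part through promoters. Egr1, called in fibroblasts, is not shown because no RefSeq window was at hand for it. Each is the 250 bases before a transcript start in RefSeq (GRCm38.p6), written 5′ to 3′ on the strand of the gene. Capitals mark, on either strand, a CArG box, the cAMP response element TGACGTCA, its shorter core TGACG, which lies within that element, and the Egr motif GCGNGGGCG. The Fos window is chr12:85473640-85473889 (+), that of Junb is chr8:84978749-84978998 (−), that of Nr4a1 is chr15:101266596-101266845 (+), that of Btg2 is chr1:134079156-134079405 (−), and that of Egr2 is chr10:67537619-67537868 (+).
Fos: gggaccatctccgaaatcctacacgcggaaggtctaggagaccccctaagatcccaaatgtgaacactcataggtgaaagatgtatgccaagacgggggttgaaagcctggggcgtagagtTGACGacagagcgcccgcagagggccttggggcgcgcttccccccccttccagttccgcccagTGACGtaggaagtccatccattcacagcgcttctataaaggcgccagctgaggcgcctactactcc
Junb: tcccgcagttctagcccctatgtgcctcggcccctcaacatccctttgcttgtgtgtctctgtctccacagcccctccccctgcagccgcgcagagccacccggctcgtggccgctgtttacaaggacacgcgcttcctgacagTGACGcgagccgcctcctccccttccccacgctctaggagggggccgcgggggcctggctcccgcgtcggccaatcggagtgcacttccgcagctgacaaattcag
Nr4a1: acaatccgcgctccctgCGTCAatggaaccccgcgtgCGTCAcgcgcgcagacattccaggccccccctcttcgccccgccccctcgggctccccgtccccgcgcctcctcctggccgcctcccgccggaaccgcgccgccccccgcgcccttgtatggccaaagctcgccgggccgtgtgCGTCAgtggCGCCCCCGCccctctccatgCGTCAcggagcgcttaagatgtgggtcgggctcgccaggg
Btg2: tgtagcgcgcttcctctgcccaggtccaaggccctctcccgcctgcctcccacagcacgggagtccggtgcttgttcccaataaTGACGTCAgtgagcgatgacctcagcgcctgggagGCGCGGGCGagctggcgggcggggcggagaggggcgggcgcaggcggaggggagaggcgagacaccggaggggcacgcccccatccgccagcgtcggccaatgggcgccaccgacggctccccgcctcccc
Egr2: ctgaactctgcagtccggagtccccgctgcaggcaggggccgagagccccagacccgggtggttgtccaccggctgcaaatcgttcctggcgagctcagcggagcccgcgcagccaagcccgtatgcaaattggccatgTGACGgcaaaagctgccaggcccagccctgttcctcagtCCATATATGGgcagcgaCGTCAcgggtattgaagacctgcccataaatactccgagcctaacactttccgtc
RefSeq windows were at hand for 8 of the 10 genes, all but Egr1 and Ier2. The core TGACG, added to the search after the windows had been seen, stood in at least 1 window of 7 of the 8, all but Jun, against 19.8% of all 27025 genes with a window; some genes, Egr2 among them, have several. A complete TGACGTCA was found for Btg2 (1.77% of genes) and a CArG box for Egr2 (1.62%). The Egr motif was found for Btg2, Fosb and Nr4a1 (5.33%), and the AP-1 motif TGANTCA for none of the 8 (7.82%). These are letter matches, not measured binding. Only the 250 bases were searched, so sites outside them, CArG boxes included, would not be seen.

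In GENCODE M21 (GRCm38) Fos lies on chromosome 12 (85473890 to 85477273, plus strand), Fosb on 7 (19302696 to 19310051, minus), Jun on 4 (95049034 to 95052222, minus) and Junb on 8 (84974484 to 84978718, minus). Egr1 lies on 18 (34859823 to 34864984, plus), Egr2 on 10 (67535475 to 67542188, plus), Nr4a1 on 15 (101254269 to 101274795, plus) and Nr4a3 on 4 (48045153 to 48086447, plus). Btg2 lies on 1 (134075170 to 134079120, minus) and Ier2 on 8 (84661331 to 84662852, minus). Jun overlaps the antisense gene Junos, and Junb overlaps Prdx2 on the opposite strand. The sources used here do not state how the counting treated strand, so the reads of these overlapping genes cannot be told apart.

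The cKO libraries held 8424 and 14238 barcodes with 20992683 and 40536562 UMIs (unique molecular identifiers, each standing for 1 captured RNA), and the control libraries 5947 and 13097 barcodes with 13491201 and 35204091 UMIs. Filtering kept 3642 and 6268 cKO nuclei and 2805 and 6024 control nuclei, 18739 of 41706 barcodes; 48.8% to 53.8% of the barcodes of a library had more than 5% mitochondrial UMIs and were left out. No barcode was shared among kept nuclei of different libraries. In every class, all of its own markers (10 to 14 genes) had their highest level in that class. The clusters had been named by these same markers, so this is no independent check. In cardiomyocytes Pkp2 itself stood at 617 and 591 CPM (counts scaled to the summed UMIs of the library and class) in cKO and 571 and 556 CPM in control libraries (0.10 on the log2 scale, SE 0.14, adjusted p = 0.836), and since the deleted part is not known this does not check the labels. Esr1, parts of which the transgene carries, stood at 3585 and 3317 CPM in cKO and 76.4 and 64.2 CPM in control cardiomyocytes (5.62, SE 0.20, adjusted p = 1.07e-05). The groups may therefore differ in the transgene too, and the effects of that and of Pkp2 cannot be told apart.

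Over all kept nuclei the 10 genes together took 203 and 293 CPM in cKO and 102 and 112 CPM in control libraries. The barcodes that were left out showed the same order, with 239 and 332 CPM in cKO and 148 and 150 CPM in control libraries. In cKO hearts these UMIs came less from cardiomyocytes: they held 39.8% and 27.9% of them in cKO libraries, against 57.2% and 44.5% in control libraries. Cardiomyocytes were also a smaller share of the nuclei, 32.5% and 24.8% in cKO against 51.1% and 41.8% in control libraries. Fibroblasts held 18.0% and 31.8% of the UMIs in cKO and 11.9% and 13.1% in control libraries. The endothelial share was 18.1% and 26.3% in cKO and 15.5% and 20.4% in control libraries, and that of macrophages 17.5% and 8.47% in cKO and 7.73% and 11.7% in control libraries, where the groups overlapped. A nuclear sort and the filters stand between these shares and the heart, so they describe the libraries.

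**Figure D1:**
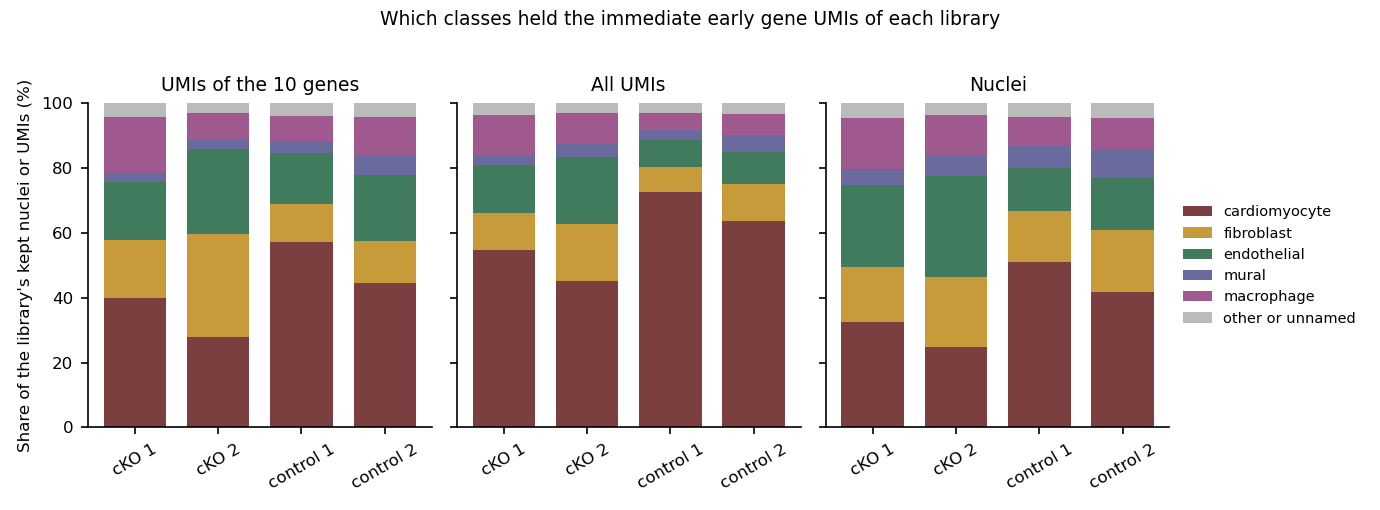
Stacked bars give the share (%) of each library's kept-nucleus UMIs of the 10 immediate early genes (left), of all UMIs (middle) and of nuclei (right) held by each class, cKO libraries left of control libraries. Cardiomyocytes held 39.8% and 27.9% of the immediate early gene UMIs in cKO and 57.2% and 44.5% in control libraries.

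Relative to their own totals, every class of the cKO libraries carried more of these transcripts than that class of the control libraries. The summed level of the 10 genes was 164 ± 23.3 CPM in cKO and 79.4 ± 1.07 CPM in control cardiomyocytes (SD, n = 2 each), the lowest mean of the 5 classes in both groups. It was 426 ± 149 CPM in cKO and 142 ± 19.7 CPM in control fibroblasts, and 314 ± 88.9 CPM in cKO and 211 ± 31.5 CPM in control endothelial nuclei. In mural nuclei it was 184 ± 7.23 CPM in cKO and 126 ± 2.83 CPM in control, and in macrophages 272 ± 17.1 CPM in cKO and 175 ± 36.7 CPM in control. The groups did not overlap in any class. Neighbouring classes often did: in cKO libraries cardiomyocytes (148 and 181 CPM) overlapped mural nuclei (179 and 189 CPM), and in control libraries macrophages (149 and 201 CPM) overlapped both fibroblasts (156 and 128 CPM) and endothelial nuclei (189 and 233 CPM).

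Most nuclei held none of these transcripts, and the share that did moves with depth. Nuclei were therefore thinned to 1000 UMIs each and shallower ones left out, between 20 nuclei (mural, cKO 2) and 214 nuclei (endothelial, cKO 1) of a class and library. The loss was uneven. Control 1 lost 181 of 443 fibroblasts, 159 of 369 endothelial and 89 of 192 mural nuclei. In cKO 2 the losses were 48 of 1362, 115 of 1941 and 20 of 388 nuclei. The shares at 1000 UMIs therefore rest on differently selected nuclei. At that depth at least 1 UMI of the 10 genes was seen in 10.5% and 13.9% of cKO cardiomyocytes (exact 95% binomial intervals 8.76% to 12.5% and 12.2% to 15.8%) and in 6.93% and 7.14% of control cardiomyocytes (5.64% to 8.40% and 6.15% to 8.24%). Among fibroblasts the share was 18.9% and 23.1% in cKO (15.6% to 22.6% and 20.8% to 25.4%) and 13.4% and 9.70% in control libraries (9.48% to 18.1% and 8.01% to 11.6%). Endothelial nuclei overlapped, with 17.1% and 22.5% in cKO and 18.6% and 19.3% in control libraries. Mural nuclei gave 13.1% and 16.0% in cKO and 12.6% and 11.3% in control libraries, and macrophages 19.7% and 18.6% in cKO and 12.6% and 17.2% in control libraries. In mural nuclei and macrophages the binomial intervals of the groups overlapped, and in fibroblasts those of cKO 1 and control 1 did. The groups did not overlap in 4 of the 5 classes, but a two-sided exact permutation test of 2 against 2 libraries cannot go below p = 0.33, the value it gave in those 4 (p = 1 in endothelial nuclei). The intervals cover counting error only.

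**Figure D2:**
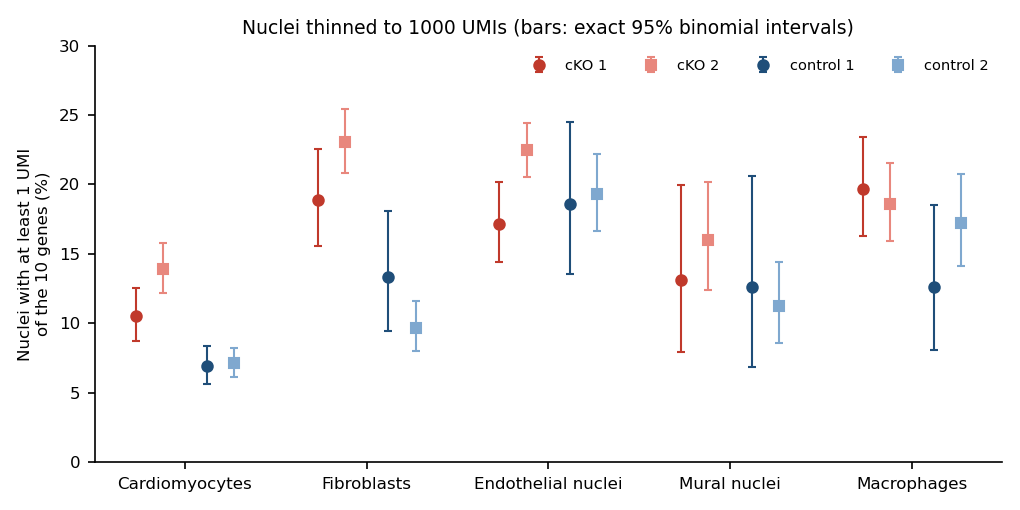
Points give the share (%) of nuclei with at least 1 UMI of the 10 genes after thinning each nucleus to 1000 UMIs, by class and library with cKO left of control, and bars are exact 95% binomial intervals. In cardiomyocytes and fibroblasts both cKO libraries lie above both control libraries (10.5% and 13.9% against 6.93% and 7.14% in cardiomyocytes), while endothelial nuclei overlap.

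Jun made up much of that share. Without Jun, the other 9 genes were seen in 6.99% and 9.96% of cKO and 3.28% and 2.82% of control cardiomyocytes, and in 14.3% and 18.0% of cKO and 8.40% and 6.01% of control fibroblasts. Before thinning, 38.0% and 45.2% of cKO and 22.6% and 25.9% of control cardiomyocytes held a UMI of the 10, at median depths of 4308 and 5292 UMIs in cKO and 3163 and 3934 UMIs in control nuclei. Before thinning, fibroblasts gave 27.2% and 35.8% in cKO and 13.5% and 16.5% in control libraries. No class is known to lack these genes, so the share that free RNA alone would give could not be set. At most 7 of the 10 genes were seen in 1 thinned nucleus, a fibroblast of cKO 2. At least 3 of the 10 were seen in 4.03% of the fibroblasts and 2.52% of the endothelial nuclei of cKO 2. In cKO 1 these shares were 0.795% and 0.286% (4 and 2 nuclei). In the control libraries they were 0.382% and 0.0924% of fibroblasts and 0.476% and 0.123% of endothelial nuclei. Each of these control shares was 1 nucleus.

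In cardiomyocytes, 4 of the 8 genes deep enough to test were higher in cKO hearts and none was lower, where 1.22% of all 15351 genes tested were called higher and 1.54% lower. Tests were edgeR's quasi-likelihood test on UMIs summed per library and class, Benjamini-Hochberg adjusted over all genes of the class, and calls needed an adjusted p under 0.05. Below, single genes are given in CPM with edgeR's TMM scaling. Both cKO libraries lay above both control libraries for 7 of the 8, against 22.2% of all genes, and the median log2 fold change of the 8 was 1.61, against 0.00 for all genes.

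Fos, the AP-1 subunit, was close to absent from control cardiomyocytes. It gave 31 and 58 UMIs in 19 of 1184 and 42 of 1552 cKO nuclei, and 2 and 11 UMIs in 2 of 1432 and 11 of 2518 control nuclei. Its level was 5.72 and 6.90 CPM in cKO and 0.409 and 1.03 CPM in control cardiomyocytes, higher by 2.94 on the log2 scale (SE 0.45, adjusted p = 0.0124). The groups stood well apart, on few molecules.

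Its partner Junb stood at 15.7 and 20.6 CPM in cKO and 6.54 and 6.20 CPM in control cardiomyocytes (log2 fold change of cKO over control 1.52, SE 0.25, adjusted p = 0.0156). Jun was not called: it stood at 41.5 and 49.9 CPM in cKO and 43.7 and 45.8 CPM in control cardiomyocytes, with overlapping groups (0.03, SE 0.17, adjusted p = 0.970). Fosb was seen in 0 and 8 UMIs in cKO and 2 and 0 UMIs in control libraries and was not tested.

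Nr4a1, the orphan receptor, stood at 37.1 and 24.2 CPM in cKO and 10.8 and 7.99 CPM in control cardiomyocytes (1.72, SE 0.27, adjusted p = 0.0141). It was found in 13.4% and 11.1% of cKO and 3.28% and 3.02% of control cardiomyocytes before thinning, and in 2.98% and 1.87% of cKO and 1.17% and 0.776% of control cardiomyocytes at 1000 UMIs. Its relative Nr4a3 gave 2.95 and 4.88 CPM in cKO and 1.84 and 1.03 CPM in control, which did not pass (1.57, SE 0.48, adjusted p = 0.157). Btg2, the antiproliferative gene, stood at 32.5 and 47.0 CPM in cKO and 14.7 and 13.4 CPM in control cardiomyocytes (1.51, SE 0.23, adjusted p = 0.0113). For both Nr4a1 and Btg2 the cKO libraries lay clear of the control libraries.

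Egr1 separated the groups but with unequal cKO libraries, at 6.83 and 22.5 CPM in cKO and 2.66 and 4.51 CPM in control cardiomyocytes, and did not pass (1.99, SE 0.53, adjusted p = 0.102). It was called with DESeq2 (adjusted p = 0.00728), without a filter on low counts (adjusted p = 6.02e-08) and with cKO 1, control 1 or control 2 left out (adjusted p between 4.29e-10 and 0.000274), but not without cKO 2 (0.86, adjusted p = 0.460). Ier2 stood at 2.03 and 2.38 CPM in cKO and 0.613 and 0.752 CPM in control cardiomyocytes (1.64, SE 0.50, adjusted p = 0.163). Egr2 was hardly seen, with 3 and 1 UMIs in cKO and 0 and 2 UMIs in control libraries, and was not tested. In nuclei clustered anew with a limit of 20% mitochondrial UMIs, the summed level of the 10 genes was higher in cKO cardiomyocytes in each band of mitochondrial share: 133 and 168 CPM in cKO and 70.4 and 74.3 CPM in control nuclei at up to 1%, and 208 and 209 CPM in cKO and 99.5 and 99.6 CPM in control nuclei between 5% and 20%.

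**Figure D3:**
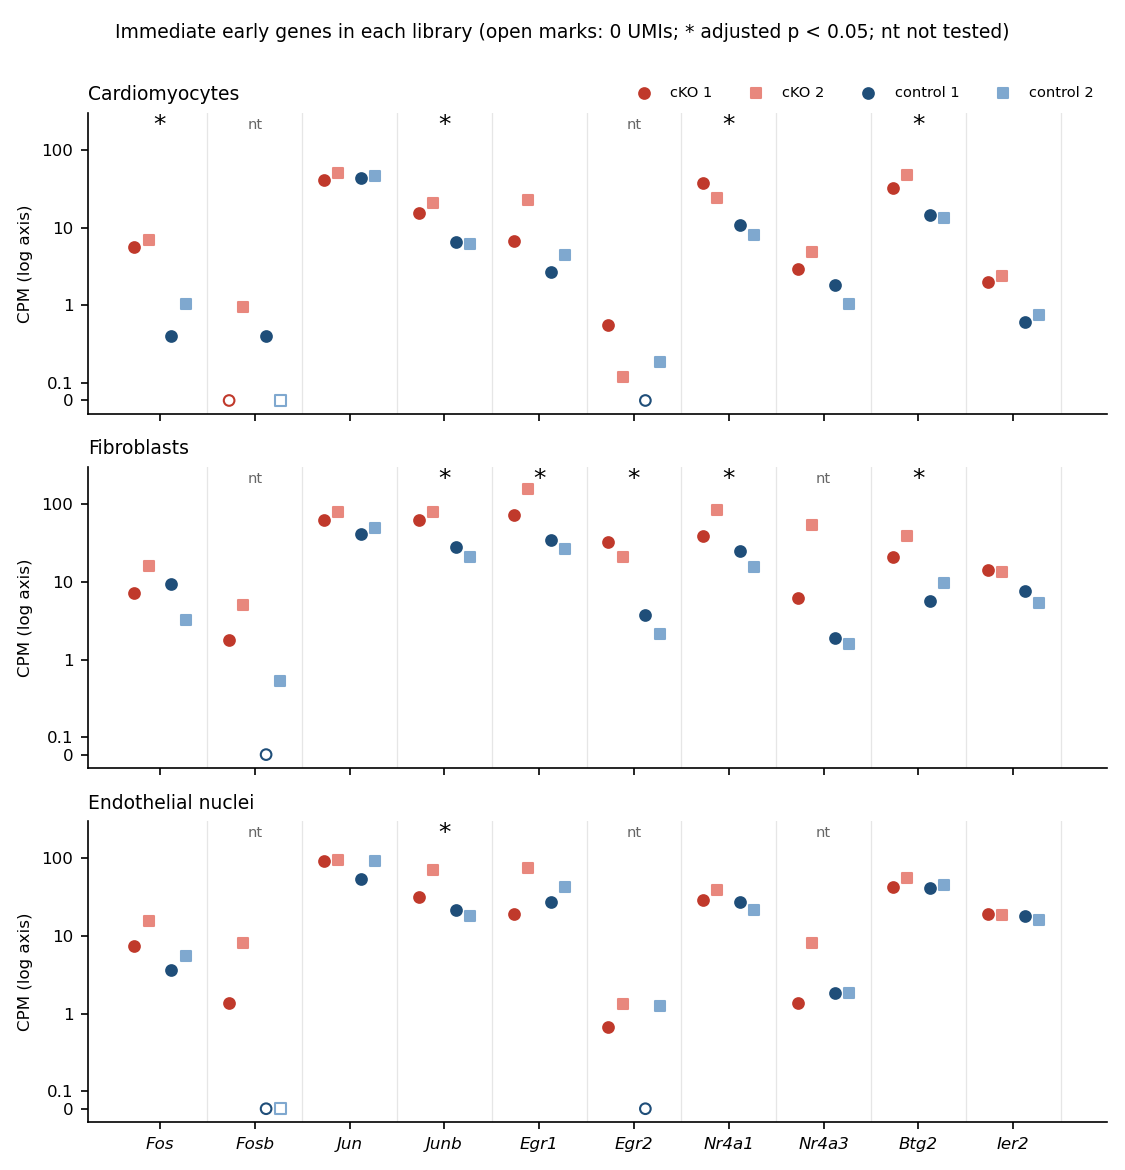
Each point is the level (TMM-scaled CPM, log axis) of 1 gene in 1 library, for cardiomyocytes, fibroblasts and endothelial nuclei, with cKO libraries left of control libraries; open marks at the foot are libraries with 0 UMIs, stars mark an adjusted p under 0.05 and nt genes not tested. Fos, Junb, Nr4a1 and Btg2 separate the groups in cardiomyocytes, while Jun stands between 41.5 and 49.9 CPM in all 4 libraries.

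Different clusters held most cardiomyocytes of the 2 groups. A cluster led by Kctd16 and Nppb, the natriuretic peptide gene of strained muscle, and one led by Esr1 and Myh7 together held most cKO cardiomyocytes. The Nppb cluster held 40.5% of those of cKO 1 and 48.5% of those of cKO 2, and the Esr1 cluster 43.3% and 34.7%. The cluster led by Cntn5 held 34.4% of the cardiomyocytes of control 1 and 50.6% of those of control 2, and that led by Pfkfb1 48.1% and 34.4%. Within the Nppb cluster the 10 genes summed to 181 and 223 CPM in cKO and 125 and 115 CPM in control nuclei. Fos stood there at 9.18 and 10.7 CPM in cKO and 0 and 1.23 CPM in control nuclei, Btg2 at 44.4 and 63.2 CPM in cKO and 37.3 and 33.1 CPM in control nuclei, and Nr4a1 at 43.3 and 28.6 CPM in cKO and 24.1 and 9.80 CPM in control nuclei. Both cKO libraries were above both control libraries in the Cntn5 cluster too (89.6 and 98.5 CPM in cKO, 69.3 and 73.4 CPM in control). The same order held in the Pfkfb1 cluster (124 and 127 CPM in cKO, 70.5 and 74.5 CPM in control). The cKO values there rested on 25 and 26 UMIs in 107 and 92 nuclei. Those nuclei were shallower, with median depths of 1072 and 1180.5 UMIs in cKO and 2600 and 2914 UMIs in control. The groups overlapped in the Esr1 cluster, at 116 and 132 CPM in cKO and 127 and 97.2 CPM in control nuclei. These values describe clusters built from the same nuclei and carry no test.

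**Figure D4:**
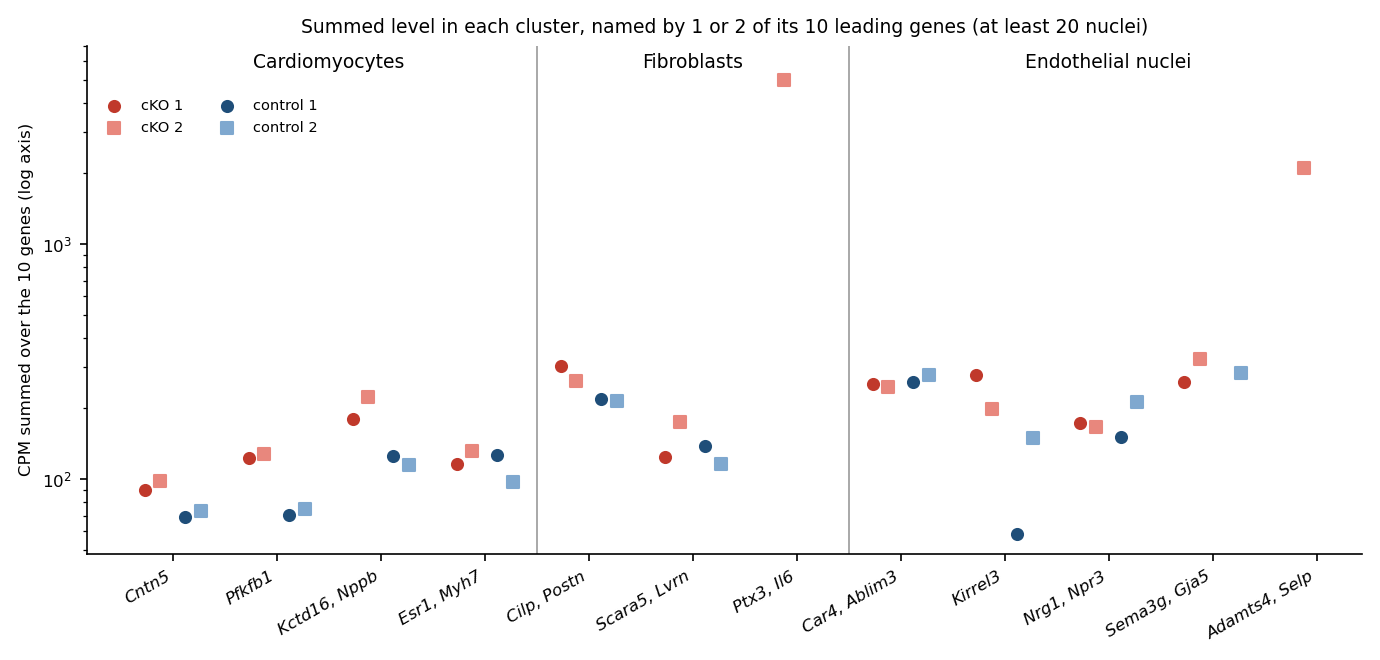
Points give the summed level of the 10 genes (CPM, log axis) in each cluster of cardiomyocytes, fibroblasts and endothelial nuclei that holds at least 20 nuclei of a library, with cKO left of control. The clusters led by Ptx3 and by Adamts4 have a point for cKO 2 alone, at 4990 and 2112 CPM, far above the other clusters.

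In fibroblasts, the cells that make the heart's collagen, 5 of 8 genes tested were higher in cKO hearts and none was lower; 2.37% of all 11876 genes were called higher there and 1.47% lower. Both cKO libraries were above both control libraries for 7 of the 8, against 22.5% of all genes, and the median log2 fold change was 1.72, against 0.01 for all genes. Those called were both Egr genes, Junb, Nr4a1 and Btg2.

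Egr2, hardly seen in cardiomyocytes, gave 36 and 65 UMIs in cKO and 2 and 4 UMIs in control fibroblasts. Its level was 32.2 and 20.7 CPM in cKO and 3.80 and 2.13 CPM in control fibroblasts (3.29, SE 0.55, adjusted p = 0.00322). Egr1 stood at 71.5 and 157 CPM in cKO and 34.2 and 26.6 CPM in control fibroblasts (2.02, SE 0.36, adjusted p = 0.00511). In both genes the groups were apart, and cKO 2 was the higher cKO library for Egr1 and the lower one for Egr2.

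Junb stood at 62.6 and 80.0 CPM in cKO and 28.5 and 20.7 CPM in control fibroblasts (1.64, SE 0.29, adjusted p = 0.00511). Nr4a1 stood at 38.4 and 84.1 CPM in cKO and 24.7 and 15.4 CPM in control fibroblasts (1.81, SE 0.40, adjusted p = 0.0184), and Btg2 at 20.6 and 38.5 CPM in cKO and 5.69 and 9.57 CPM in control fibroblasts (1.86, SE 0.44, adjusted p = 0.0273). Of the 3 that were tested and not called, Fos overlapped between groups, at 7.15 and 15.9 CPM in cKO and 9.49 and 3.19 CPM in control fibroblasts (1.35, SE 0.63, adjusted p = 0.358). Jun stood at 61.7 and 80.0 CPM in cKO and 41.8 and 50.0 CPM in control fibroblasts (0.61, SE 0.26, adjusted p = 0.283), and Ier2 at 14.3 and 13.4 CPM in cKO and 7.59 and 5.32 CPM in control fibroblasts (1.20, SE 0.50, adjusted p = 0.278). Of the 5 calls, Junb was lost without control 2 (1.35, adjusted p = 0.0733), Nr4a1 without control 2 (1.39, adjusted p = 0.0802) or cKO 2 (1.06, adjusted p = 0.234), and Btg2 without cKO 2 (1.27, adjusted p = 0.377). With DESeq2 the call of Btg2 was lost (1.86, adjusted p = 0.125). At up to 20% mitochondrial UMIs Btg2 (1.25, adjusted p = 0.108) and Nr4a1 (1.18, adjusted p = 0.0886) were lost. With at least 1000 UMIs per nucleus Btg2 (1.62, adjusted p = 0.0728) and Nr4a1 (1.71, adjusted p = 0.0563) were lost as well. At up to 1% mitochondrial UMIs Junb was lost (2.14, adjusted p = 0.307). Fosb (2 and 16 UMIs in cKO, 0 and 1 in control) and Nr4a3 (7 and 167 UMIs in cKO, 1 and 3 in control) were not tested. Almost all Nr4a3 came from cKO 2.

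A small fibroblast cluster led by Ptx3, Il6, Cxcl1 and Nr4a3 stood behind much of the level in cKO 2. It held 103 nuclei of cKO 2, 5 of cKO 1 and 1 of each control library, so that 93.6% of it came from 1 library. Its cKO 2 nuclei carried 4990 CPM of the 10 genes, and 69.9% of them had at least 3 of the 10. They were 7.56% of the fibroblasts of cKO 2 and held 55.0% of its fibroblast UMIs of these genes. With this cluster left out, as an alternative chosen after seeing the data, the fibroblasts of cKO 2 fell to 254 CPM, against 531 CPM with it, and Egr2 (2.99, adjusted p = 0.00733) and Egr1 (1.16, adjusted p = 0.0212) were the genes still called. Without it Junb gave 0.95 (adjusted p = 0.158), Nr4a1 0.43 (adjusted p = 0.726) and Btg2 1.25 (adjusted p = 0.150).

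The other fibroblasts also lay in different clusters. One led by Nox4 and Cilp held 92.4% and 80.8% of the fibroblasts of the 2 cKO libraries. Another, led by Lvrn, Col6a6 and Scara5, held 82.4% and 91.1% of those of the 2 control libraries. In the cluster led by Nox4 the 10 genes summed to 303 and 263 CPM in cKO and 219 and 215 CPM in control nuclei, and in the cluster led by Lvrn to 124 and 174 CPM in cKO and 138 and 117 CPM in control nuclei. Egr2 stood at 31.0 and 16.4 CPM in cKO and 8.44 and 14.3 CPM in control nuclei of the Nox4 cluster, where Egr1 overlapped at 67.7 and 62.3 CPM in cKO and 76.0 and 47.8 CPM in control nuclei. In the Lvrn cluster Egr2 was at 0 in both cKO libraries and at 2.42 and 0.563 CPM in control libraries. Summed cardiomyocyte markers in fibroblasts, a sign of free RNA, were at 6190 and 4508 CPM in cKO and 7969 and 5940 CPM in control libraries, and the part of this in the differences was not tested.

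In endothelial nuclei 1 of 7 genes tested was higher in cKO hearts and none was lower, against 0.768% of all 11718 genes called higher and 3.03% called lower. That gene was Junb, at 31.5 and 69.7 CPM in cKO and 21.9 and 18.0 CPM in control nuclei (1.45, SE 0.38, adjusted p = 0.0496). The median log2 fold change of the 7 was 0.41, against 0.01 for all genes. Both cKO libraries were above both control libraries for 4 of the 7 (22.4% of all genes).

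Fos stood at 7.53 and 15.4 CPM in cKO and 3.65 and 5.59 CPM in control endothelial nuclei (1.27, SE 0.55, adjusted p = 0.277) and Nr4a1 at 29.4 and 39.2 CPM in cKO and 27.3 and 21.7 CPM in control (0.56, adjusted p = 0.428). Egr1 overlapped, at 19.2 and 73.7 CPM in cKO and 27.3 and 42.9 CPM in control (0.41, adjusted p = 0.758), as did Jun at 91.0 and 95.0 CPM in cKO and 54.7 and 92.0 CPM in control (0.28, adjusted p = 0.696) and Btg2 at 42.4 and 54.8 CPM in cKO and 41.9 and 45.4 CPM in control (0.16, adjusted p = 0.855). Ier2 stood at 19.2 and 18.6 CPM in cKO and 18.2 and 16.2 CPM in control (0.16, adjusted p = 0.898). Fosb (2 and 30 UMIs in cKO, 0 in both control libraries), Nr4a3 (2 and 30 in cKO, 1 and 3 in control) and Egr2 (1 and 5 in cKO, 0 and 2 in control) were not tested.

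Here too a cluster of 1 library carried many of the transcripts. It was led by Adamts4, Rnd1, Selp and Cxcl9 and held 177 nuclei of cKO 2, 4 of cKO 1, none of control 1 and 1 of control 2. Fosb, a member, was also among its 10 leading genes, and the members were among the genes of the nuclei that were clustered. Its cKO 2 nuclei had 2112 CPM of the 10 genes, were 9.12% of the endothelial nuclei of cKO 2 and held 44.6% of their UMIs of these genes. Leaving that cluster out was again an alternative chosen after seeing the data. Without it the summed level of cKO 2 was 227 CPM, within the 189 and 233 CPM of the control libraries. Junb then did not pass (0.92, adjusted p = 0.137). The call of Junb was also lost with cKO 2 left out (0.71, adjusted p = 0.573) or control 2 left out (1.27, adjusted p = 0.117). In the largest cluster, led by Car4 and Ablim3, the 10 genes stood at 255 and 246 CPM in cKO and 258 and 278 CPM in control nuclei. Summed cardiomyocyte markers in endothelial nuclei were at 10128 and 6916 CPM in cKO and 22037 and 16378 CPM in control libraries, and the part of this in the differences was not tested.

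No gene of the 10 was called in mural nuclei, where 5 were tested and 0.111% of all 8138 genes were called higher and 0.0369% lower, or in macrophages, where 7 were tested and 0.848% of all 11437 genes were called higher and 0.752% lower. DESeq2 called 0 in both as well. The smallest unadjusted edgeR p in mural nuclei belonged to Jun. It stood at 37.1 and 56.9 CPM in cKO and 24.2 and 21.5 CPM in control libraries (1.13, SE 0.48, adjusted p = 0.745). Egr1 was the only gene with a lower fitted level there, at 40.8 and 29.9 CPM in cKO and 29.0 and 41.8 CPM in control (−0.15, adjusted p = 0.999). In macrophages the smallest unadjusted edgeR p values belonged to Junb and Egr1. Junb stood at 48.2 and 47.6 CPM in cKO and 31.3 and 24.5 CPM in control (0.83, SE 0.35, adjusted p = 0.293). Egr1 stood at 28.1 and 26.2 CPM in cKO and 2.84 and 16.0 CPM in control (1.18, SE 0.50, adjusted p = 0.311). Fos and Btg2, called in cardiomyocytes, overlapped in macrophages: Fos stood at 25.7 and 14.9 CPM in cKO and 8.53 and 23.5 CPM in control (0.11, adjusted p = 0.961), and Btg2 at 39.4 and 38.1 CPM in cKO and 39.8 and 34.8 CPM in control (0.08, adjusted p = 0.958). The macrophages of the groups also lay in different clusters. One led by Cd300lf, Gpnmb and Spp1 held 45.5% and 33.4% of them in cKO and 2.36% and 0.168% in control libraries. Another, led by Cd163 and Cbr2, held 40.2% and 51.2% in cKO and 85.0% and 89.9% in control libraries. Within the Cd163 cluster the 10 genes summed to 232 and 217 CPM in cKO and 137 and 179 CPM in control nuclei. Summed cardiomyocyte markers in macrophages were at 6132 and 5576 CPM in cKO and 11954 and 10078 CPM in control libraries, and the part of either in the differences was not tested. Mural nuclei and macrophages had the fewest UMIs, from 218205 in a library's mural nuclei, so a change of the size seen in cardiomyocytes could be missed for the rarer genes.

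**Figure D5:**
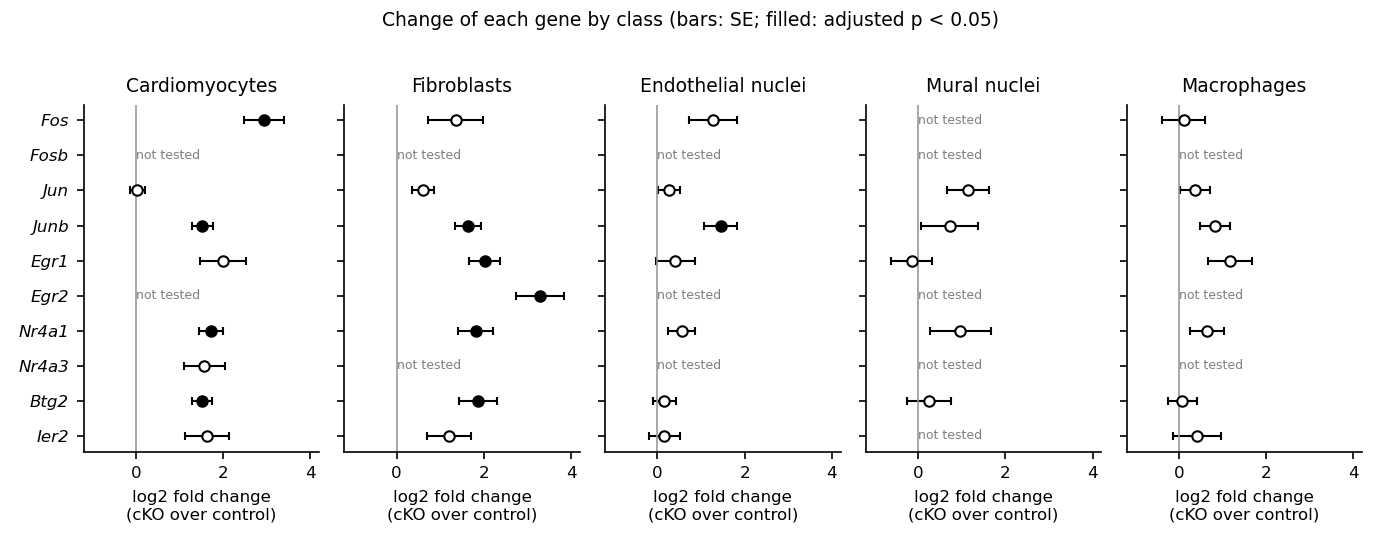
Points give the log2 fold change (cKO over control) of each gene in each class with its SE, filled where the adjusted p was under 0.05. Fos is at 2.94 in cardiomyocytes and Egr2 at 3.29 in fibroblasts, while Btg2 is at 1.51 in cardiomyocytes and near 0 in endothelial nuclei and macrophages.

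Whether a change differed between classes was tested directly, as the interaction of class and group against cardiomyocytes over 20 sums (5 classes by 4 libraries), for 36 pairs of gene and class; Fosb was too rare. Btg2 changed less in endothelial nuclei than in cardiomyocytes (difference −1.25 on the log2 scale, SE 0.28, adjusted p = 0.00740), against 2.6% of all genes with a smaller change there. Btg2 (−1.35, SE 0.33, adjusted p = 0.0192) and Fos (−2.72, SE 0.71, adjusted p = 0.0277) changed less in macrophages (1.49% of all genes). The endothelial difference of Btg2 was lost without control 2 (−1.11, adjusted p = 0.314). Those in macrophages were lost without control 1, control 2 or cKO 2, with adjusted p between 0.0975 and 0.373 for Btg2 and between 0.0939 and 0.660 for Fos. No gene passed in either direction for fibroblasts (3.75% of all genes) or mural nuclei (0.337%). Between fibroblasts and cardiomyocytes the difference was 0.14 (SE 0.36, adjusted p = 0.926) for Junb, 0.10 (SE 0.43, adjusted p = 0.970) for Nr4a1 and 2.53 (SE 0.90, adjusted p = 0.135) for Nr4a3. For Egr2 the difference was 2.44 with an SE of 1.87 (adjusted p = 0.645), so its contrast between these classes was not resolved.

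Other genes of the same response were taken as lists. Of 30 further immediate early genes, 3 of 23 tested were higher in cKO cardiomyocytes (1.22% of all genes), 4 of 25 in fibroblasts (2.37%), 3 of 21 in endothelial (0.768%), 0 of 14 in mural nuclei (0.111%) and 1 of 21 in macrophages (0.848%), and none was lower. Their median log2 fold change was 0.63 in cardiomyocytes, 1.01 in fibroblasts, 0.69 in endothelial, 0.12 in mural nuclei and 0.33 in macrophages, against at most 0.02 for all genes. In cardiomyocytes these were Ier3, Gadd45g (1.40, adjusted p = 0.0333; adjusted p = 0.0596 without cKO 2) and the kinase gene Sik1 (1.27, adjusted p = 0.0357; adjusted p = 0.0541 without cKO 1). Ier3, which was called with any 1 library left out, stood at 27.7 and 26.1 CPM in cKO and 12.1 and 8.27 CPM in control libraries (1.44, adjusted p = 0.0159). In fibroblasts they were Nr4a2, a further Nr4a receptor, at 11.6 and 41.7 CPM in cKO and 1.90 and 3.19 CPM in control libraries (3.31, adjusted p = 0.0113), with Jund (1.17), Ier3 (1.49) and Egr3 (1.71). Without cKO 2 Nr4a2 had an adjusted p of 0.517, Ier3 of 0.0568 and Egr3 of 0.239. Without control 2 that of Ier3 was 0.300 and that of Egr3 0.0813, and without control 1 that of Jund was 0.0532. Without the cluster led by Ptx3 Nr4a2 gave 1.57 (adjusted p = 0.299), Egr3 1.26 (adjusted p = 0.162) and Ier3 1.33 (adjusted p = 0.0519), so these calls were lost. In endothelial nuclei they were the AP-1 gene Fosl2 (1.63, adjusted p = 0.0248), Bhlhe40 (1.09) and Sik1 (1.12). Without cKO 2 Fosl2 had an adjusted p of 0.284 and Sik1 of 0.187, and without control 2 Bhlhe40 had 0.159 and Sik1 0.0737; without control 1 Sik1 had 0.0545. Without the cluster led by Adamts4 none of the 3 passed: Fosl2 gave 0.78 (adjusted p = 0.159), Bhlhe40 0.94 (adjusted p = 0.0627) and Sik1 0.66 (adjusted p = 0.234). In macrophages the gene was Atf3, a stress-induced factor, at 30.5 and 45.2 CPM in cKO and 5.69 and 7.53 CPM in control libraries (2.43, adjusted p = 0.0224), which was lost without control 2 (adjusted p = 0.116) or cKO 2 (adjusted p = 0.256). This compares macrophages whose makeup by cluster differed between the groups.

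Of 29 factors and kinases that act upstream, none was called higher in any class and 2 were lower, both in cardiomyocytes (1.54% of all genes were lower there): Rps6ka5, which encodes the CREB and histone kinase MSK1, at 78.3 and 82.8 CPM in cKO and 146 and 152 CPM in control libraries (−0.89, adjusted p = 0.0131), and Rps6ka2, an RSK kinase gene, at 107 and 119 CPM in cKO and 191 and 208 CPM in control libraries (−0.82, adjusted p = 0.0205; 0.0822 without cKO 1). Of 20 genes whose products damp the response, 3 of 17 tested were higher in cKO cardiomyocytes (1.22% of all genes) and 2 of 17 in fibroblasts (2.37%), with none in the other classes. Their median log2 fold change was 0.76 in cardiomyocytes and 0.07 in fibroblasts, against at most 0.01 for all genes. In cardiomyocytes Socs3, an inhibitor of cytokine signalling, stood at 5.54 and 11.1 CPM in cKO and 1.23 and 1.03 CPM in control libraries (2.92, adjusted p = 0.0144), and Dusp5, a nuclear ERK phosphatase (1.65, adjusted p = 0.0152), and Zfp36l1 (0.99, adjusted p = 0.0154) were higher too. In fibroblasts Zfp36l1 (1.24, adjusted p = 0.00671) and Zfp36 (1.63, adjusted p = 0.0172), whose products destabilise short-lived messages, were higher. The call of Zfp36l1 in fibroblasts was lost without control 2 (adjusted p = 0.100), and that of Zfp36 without control 2 (adjusted p = 0.171) or cKO 2 (adjusted p = 0.124), and also without the cluster led by Ptx3 (1.00, adjusted p = 0.238). Of 14 heat shock genes none was called in any class, and their median log2 fold change was between −0.27 (mural nuclei) and 0.06 (cardiomyocytes).

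Across the 20 sums of class and library, the genes whose level ran most like the mean of the members were Stat3 (Pearson r = 0.88), a factor that cytokines activate, Skil (0.85), Lhfpl2 (0.85), Jund (0.84) and Rlim (0.84), followed by Ckap4, Rps6ka3, Fosl2, Smurf2 and Csnk1g3 (0.83 to 0.80). They were picked from 7716 genes, and the sums share libraries and depth, so the values are a description.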

How the data were processed

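Nuclei of 2 cKO and 2 control pools of mouse hearts were measured. Each deposited matrix holds raw UMI counts, whole numbers for every gene in every nucleus that nothing had normalized, as its header and values show. Reads were placed on mm10, as the submitters' processing notes state; no aligner, annotation or rule for calling nuclei is given in the sources used here. Of the 44628 identifiers, 27169 matched GENCODE M21 without version numbers, so coordinates are those of matched genes.

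Nuclei were kept with at least 300 genes, at least 500 UMIs and at most 5% mitochondrial UMIs, and the top 0.5% by UMIs were removed in each library. Doublets were scored with Scrublet (scanpy 1.11.5). Its automatic threshold removed 13.5% of cKO 2 and marked under 0.5% elsewhere, so the 6% highest scores were removed in the other libraries. Leiden clustering (leidenalg 0.10.2, 2000 variable genes, 30 principal components, 15 neighbours, resolution 1) of all libraries together, without batch integration, gave 25 clusters, 2 of them unnamed. Clusters took class names from marker lists; the naming rule (at least 3 markers in at least 10% of nuclei at over 2 times the level elsewhere, with no rival class) was written after the data were seen. "Led by" means among the 10 genes with the largest fold over the other nuclei.

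Counts were summed per library and class and tested with edgeR 4.0.16 (R 4.3.3; quasi-likelihood test, TMM, filterByExpr) over all genes, with DESeq2 1.42.0 as an alternative. The scripts were tested on simulated data. Sums over the 10 genes and values within clusters are CPM without TMM scaling. Shares used nuclei thinned to 1000 UMIs, or to 2000 UMIs or not thinned where stated. Thinned to 500 UMIs, the groups overlapped in endothelial nuclei alone, as at 1000 UMIs but not at 2000 UMIs. The libraries are separate samples, but the labels do not say that the pools of a group came from separate experiments, so p-values measure the spread between these libraries. Depth limits single values: a library's class sum held 218205 to 10966484 UMIs.

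All 10 genes are reported in every class; of the other lists, up to 4 called genes with the smallest adjusted p, and of all genes tested in every class the 10 with the highest correlation with the members. The members and lists were chosen with earlier results of these data known.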

Additional observations from a re-analysis of the deposited data

Results flagged for a closer look

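Among 36 pairs of gene and class, 3 differed from cardiomyocytes in their change by a test of the difference itself (edgeR quasi-likelihood, Benjamini-Hochberg over all genes). For Btg2 in endothelial nuclei the difference was −1.25 (SE 0.28, adjusted p = 0.00740), and it passed under 11 of 12 alternatives. For Btg2 in macrophages it was −1.35 (SE 0.33, adjusted p = 0.0192), and for Fos in macrophages −2.72 (SE 0.71, adjusted p = 0.0277); each passed under 9 of 12. Every loss came with 1 library left out. Fos in macrophages rested on 32 and 25 UMIs in cKO and 3 and 25 UMIs in control libraries.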

How the results depend on the processing

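Of 524 recomputed log2 fold changes of single members, 469 kept direction and side of the threshold, 22 lost the call, 17 gained one and 16 changed sign. Fos, Nr4a1 and Btg2 in cardiomyocytes and Egr1 in fibroblasts were called under all 16 alternatives that could be run, Egr2 in fibroblasts under all 15, and Junb in cardiomyocytes under 15 of 16 (adjusted p = 0.0697 at up to 1% mitochondrial UMIs). The number of members called in fibroblasts was 5, and 1 at up to 1% mitochondrial UMIs, where 2 genes could be tested, 3 with at least 1000 UMIs per nucleus, 2 without the clusters of 1 library, and 3 to 6 with 1 library left out. In endothelial nuclei it was 1, and 0 with DESeq2, with up to 20% mitochondrial UMIs, without doublet removal, with an equal doublet share, with clustering that ignored immediate early genes, and without the clusters of 1 library; it was 2 without a filter on low counts and 0 to 3 with 1 library left out. In macrophages it was 1 without doublet removal. Differences between classes numbered 3, and 5 without a filter, 6 with up to 20% mitochondrial UMIs, 6 without doublet removal, 5 with an equal doublet share, 5 without the clusters of 1 library, 0 at up to 1% mitochondrial UMIs, where Egr1 alone could be tested, and 0 to 6 with 1 library left out. At up to 1% mitochondrial UMIs no member could be tested in endothelial or mural nuclei or in macrophages.

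The replicate numbers of the titles are not said to mark shared mice or days, and there are 2 pairs. Same-numbered libraries deviated together, with correlations of 0.467 in cardiomyocytes, 0.351 in fibroblasts, 0.339 in endothelial, 0.197 in mural nuclei and 0.282 in macrophages. With the number as a replicate block, 7 members were called in cardiomyocytes (Egr1, Nr4a3 and Ier2 gained), 7 in fibroblasts (Fos and Jun gained) and 3 in endothelial nuclei (Fos and Egr1 gained), and no call was lost.

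The log2 ratio of the share of nuclei with a member changed sign in endothelial nuclei without the clusters of 1 library (−0.146) and with 1 library left out (−0.143 to 0.247), and in mural nuclei at up to 1% mitochondrial UMIs (−0.0573). Sign changes of members, none of them called, came in part with 1 library left out, where Jun in cardiomyocytes ran from −0.12 to 0.15, Egr1 from −0.94 to 0.99 and Btg2 from −0.045 to 0.32 in endothelial nuclei, Egr1 in mural nuclei from −0.32 to 0.24, and Fos from −0.34 to 1.23 and Btg2 from −0.032 to 0.13 in macrophages. Without the clusters of 1 library Egr1 (−0.79), Btg2 (−0.0862) and Ier2 (−0.0519) changed sign in endothelial nuclei. Jun in cardiomyocytes did so with all classes in 1 fit (−0.00148), Ier2 in endothelial nuclei without doublet removal (−0.0316), Egr1 in mural nuclei with up to 20% mitochondrial UMIs (1.06) or without doublet removal (0.29), and Fos in macrophages with at least 1000 UMIs (−0.0348). The causes were not tested. Of the 18 calls in the other lists, 13 were lost with some 1 library left out and 7 without the clusters of 1 library, and none changed sign. With DESeq2 those of Jund, Ier3, Egr3 and Zfp36 in fibroblasts, Bhlhe40 and Sik1 in endothelial nuclei and Atf3 in macrophages were lost.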

Other observations

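A small macrophage cluster led by Treml4, Itgal and Adgre4, genes of patrolling monocytes, held 12 and 33 nuclei of the cKO libraries and 1 and 7 of the control libraries. Nr4a1, which such monocytes need in mice, stood at 920 CPM over these 53 nuclei. Over all macrophages Nr4a1 stood at 33.7 and 47.0 CPM in cKO and 34.1 and 21.7 CPM in control libraries. Nr4a1 was among the genes of the nuclei that were clustered, so this is a description.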
